A study of Mus musculus with 20 samples.

Results

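The genes of oxidative phosphorylation were followed across both genomes that encode them. Members were taken by symbol: the 13 protein genes of the mitochondrial genome, and the nuclear symbols of the Nduf, Cox4 to Cox8, Uqcr and Atp5 families. This gave 101 of the 46095 symbols in the count table, 13 mitochondrial and 88 nuclear. Of the nuclear symbols, 9 are pseudogenes by name, which leaves 79 nuclear genes. All 13 mitochondrial genes, 73 of the 79 nuclear genes and 4 of the 9 pseudogenes passed the filter on low counts and were tested. Cyc1, Ndufab1, Cox7a2l and the assembly factors do not match the rule.

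RNA was sequenced from whole livers of wild-type (WT) mice and of mice with a liver-specific knockout of Pck1 (KO), the gene of the cytosolic phosphoenolpyruvate carboxykinase of gluconeogenesis. Each genotype was fed chow or a diet that induces steatohepatitis (NASH diet) for 24 weeks, and mice were 31 to 33 weeks old. The 4 groups of 5 mice are called WT chow, WT NASH, KO chow and KO NASH. The labels name neither the Cre driver of the knockout nor the sex of the mice.

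Oxidative phosphorylation is carried out in the inner mitochondrial membrane by complexes I, III and IV, which pass electrons to oxygen and pump protons, and by complex V, the ATP synthase. Complexes I, III, IV and V mix subunits from both genomes, while complex II is wholly nuclear. Mitochondrial genes are transcribed as long polycistronic RNAs from both strands by a dedicated polymerase with the factors TFAM and TFB2M, whereas each nuclear subunit has its own promoter, and regulators such as NRF1, GABP and the estrogen-related receptors are known to act on many of them.

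Sequences of mitochondrial genes are shown first because some of them are almost letter for letter the same as copies in the nuclear genome. ND3, a complex I subunit, and its annotated nuclear copy Gm28438 (GRCm38, chr1:24612775-24613119, minus strand) differed at 1 of 345 aligned bases. Their first 100 bases are given 5′ to 3′, and the capital marks the base that differs.
ND3: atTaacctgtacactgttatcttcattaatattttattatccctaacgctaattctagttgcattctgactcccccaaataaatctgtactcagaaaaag
Gm28438: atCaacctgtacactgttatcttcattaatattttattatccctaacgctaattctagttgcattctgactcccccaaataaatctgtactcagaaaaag
ND5, the complex I subunit on which the results turn, had no copy of this kind. Its best annotated match, Gm11407 (chr4:80002331-80003388, plus strand), was 92.3% identical, and in bases 748 to 847 of ND5 the 2 sequences differed at 11 of 100 positions, in capitals.
ND5: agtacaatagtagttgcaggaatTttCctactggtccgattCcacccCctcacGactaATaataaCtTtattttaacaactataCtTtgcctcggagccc
Gm11407: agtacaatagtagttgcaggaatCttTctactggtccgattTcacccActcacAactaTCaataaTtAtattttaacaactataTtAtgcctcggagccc

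For the nuclear genome, promoters of 3 members are shown, each because the gene was called in at least 1 fit below and its promoter holds the letters of a motif of a known regulator. All are RefSeq promoters of GRCm38.p6, from 250 bases before to 50 bases after the start, with the motif in capitals on either strand. Uqcrc1, a core subunit of complex III (chr9:108936398-108936697, plus strand), holds the NRF1 motif. Atp5h, a stalk subunit of ATP synthase (chr11:115419870-115420169, minus strand), holds the GABP letters CCGGAAGT, here on the opposite strand of the printed sequence. Atp5g3, which encodes the c subunit of the ATP synthase ring (chr2:73911277-73911576, minus strand), holds the estrogen-related receptor letters TCAAGGTCA, here on the opposite strand.
Uqcrc1: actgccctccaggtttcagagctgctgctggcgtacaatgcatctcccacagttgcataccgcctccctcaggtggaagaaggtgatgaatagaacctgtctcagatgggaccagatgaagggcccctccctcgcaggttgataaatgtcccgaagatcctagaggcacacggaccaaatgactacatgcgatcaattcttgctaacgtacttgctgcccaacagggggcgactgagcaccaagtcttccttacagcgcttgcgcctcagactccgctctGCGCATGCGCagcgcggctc
Atp5h: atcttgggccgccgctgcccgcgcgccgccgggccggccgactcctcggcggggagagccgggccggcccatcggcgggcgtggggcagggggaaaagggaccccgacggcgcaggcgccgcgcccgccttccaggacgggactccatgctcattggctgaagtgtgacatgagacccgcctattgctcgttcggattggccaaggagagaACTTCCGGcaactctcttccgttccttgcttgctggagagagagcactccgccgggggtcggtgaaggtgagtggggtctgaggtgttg
Atp5g3: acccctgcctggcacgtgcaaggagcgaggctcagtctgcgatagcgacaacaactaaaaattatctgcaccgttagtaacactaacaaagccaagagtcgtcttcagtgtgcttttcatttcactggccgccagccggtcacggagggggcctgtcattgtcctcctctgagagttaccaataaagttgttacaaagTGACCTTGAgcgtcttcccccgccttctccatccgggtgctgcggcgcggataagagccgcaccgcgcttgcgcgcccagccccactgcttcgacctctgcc
Promoters were matched for 62 of the 79 nuclear members. The NRF1 letters were in 5 of the 62 (Atp5g2, Atp5k, Cox6a1, Ndufa11 and Uqcrc1) and in 1.07% of 27025 genes. The GABP letters were in 5 of the 62 (Atp5h, Cox8a, Ndufs3, Uqcr11 and Uqcrh) and in 4.31% of genes, and those of the estrogen-related receptors were in 1 of the 62, Atp5g3, and in 0.466% of genes. All 3 motifs were chosen after the expression values were known, so these shares are descriptions. A match is not evidence of binding.

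The libraries did not all behave alike. Totals ran from 9958935 to 20601955 counts. Pck1 checked the genotype labels, with log2 fold changes of KO against WT of -2.51 on chow (edgeR adjusted p = 0.00011) and -2.36 on the NASH diet (edgeR adjusted p = 6.13e-05). Short genes were relatively high in 3 WT chow mice (replicates 3, 4 and 5), 1 WT NASH mouse (replicate 4) and 2 KO chow mice (replicates 4 and 5): the slope of relative log2 CPM on log2 transcript length was -0.41 to -0.29, against 0.02 to 0.22 in the other 14 libraries. KO NASH had none of the 6. By Y-linked counts, WT chow held 5 males, WT NASH 1 male (replicate 4), KO chow 3 males and KO NASH 4 males. Hepatocyte markers summed to 48481 to 121060 CPM and markers of striated muscle and brown fat to 0 to 1.77 CPM. Macrophage and leukocyte markers summed to 290 to 1353 CPM in the 6 libraries and 170 to 462 CPM in the 14. Endothelial, stellate and bile duct markers summed to 543.4 to 1035 CPM and 246 to 542.6 CPM, ranges that nearly touch. CPM here means counts scaled to a common library size after TMM, which evens out differences in composition. TMM factors were 0.683 to 0.849 in the 6 libraries and 0.993 to 1.32 in the 14, and a lower factor raises every CPM of a library. The markers' shares of unscaled counts are not given here, so their ranges hold for scaled values only.

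Nuclear members are short. The 72 tested ones with a known transcript had a median length of 823.5 bases (371 to 4715), the mitochondrial genes 784 bases (204 to 1824) and all tested nuclear genes 2845 bases. Of the 72, 70 were shorter than the median of all genes. In the 6 libraries of negative slope the 79 nuclear members summed to 15702 to 20047 CPM, and in the 14 others to 6570 to 10788 CPM, with no overlap. On the same TMM scale the ranges of the endothelial, stellate and bile duct markers nearly touched. The part of these cells in the members' sums was not tested. As a share of unscaled counts the 79 nuclear members made up 1.17% to 1.45% and 0.722% to 1.20%, which overlap. WT chow 3, 4 and 5 held 15702, 15765 and 18109 CPM, and WT chow 1 and 2 held 8407 and 7627 CPM.

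**Figure D1:**
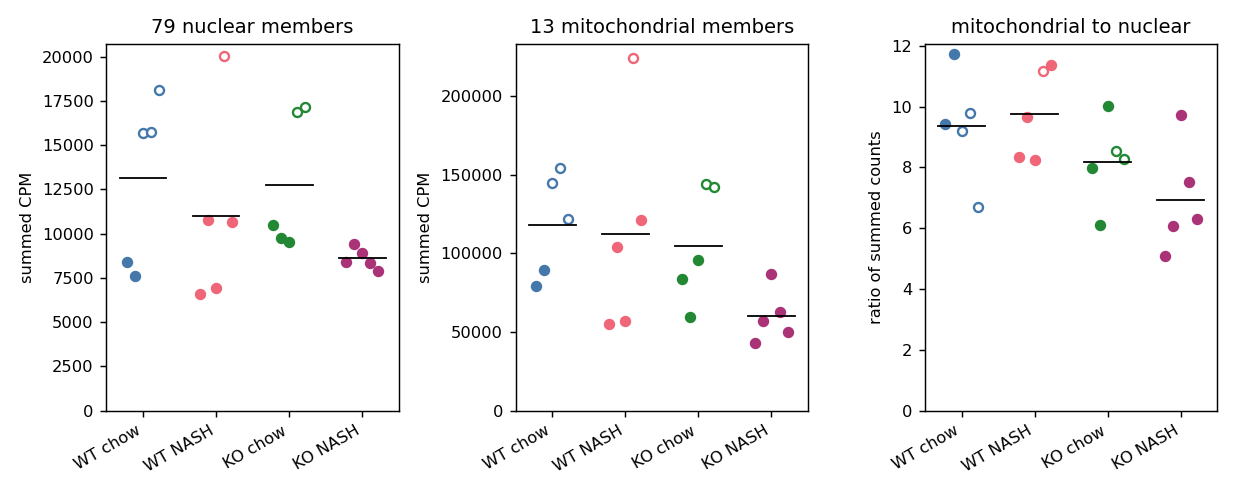
Summed CPM of the nuclear members (left), of the mitochondrial members (middle) and the ratio of mitochondrial to nuclear counts (right), by group. Each point is 1 mouse, the line is the group mean, and open points are the 6 libraries of negative length slope, whose nuclear sums of 15702 to 20047 CPM lie above all filled points.

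Within each of the 3 groups that held both kinds of library, 53 of the 73 tested nuclear members were higher and 11 were lower in the libraries of negative slope. Those libraries were set apart by their raised short genes, and the members are short, so this majority follows in part from the choice. The matching share of all genes is not given here, and the counts are descriptions. The median difference of nuclear members was 1.27 on the log2 scale in WT chow, 1.57 in WT NASH and 0.93 in KO chow. Ndufa2, an accessory subunit of complex I, rested at 34.8 and 34.3 CPM in WT chow 1 and 2 and at 201, 270 and 217 CPM in WT chow 3, 4 and 5. Ndufa10, another accessory subunit of complex I, went the opposite way, at 114 and 92.9 CPM against 30.7, 29.3 and 47.0 CPM. The members lower in all 3 groups also included Atp5a1, Atp5d and Atp5g3 of ATP synthase, Cox4i1 of complex IV and Ndufb10, Ndufa8, Ndufs3 and Ndufv1 of complex I. Length ordered the members weakly. Across the 72, Spearman's rho between length and this difference was -0.31, -0.26 and -0.18 in the 3 groups. Mitochondrial members split less evenly, with 5 of 13 higher in all 3 groups and 0 lower. COX1 was among the 5, at 30231 and 33187 CPM in WT chow 1 and 2 and at 102121, 106950 and 86654 CPM in WT chow 3, 4 and 5. ND2 was lower by 1.40 and 1.37 on the log2 scale in the negative-slope libraries of WT chow and KO chow and higher by 0.42 in that of WT NASH. What sets these 6 libraries apart was not tested, and each comparison of the members is given with and without them.

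**Figure D2:**
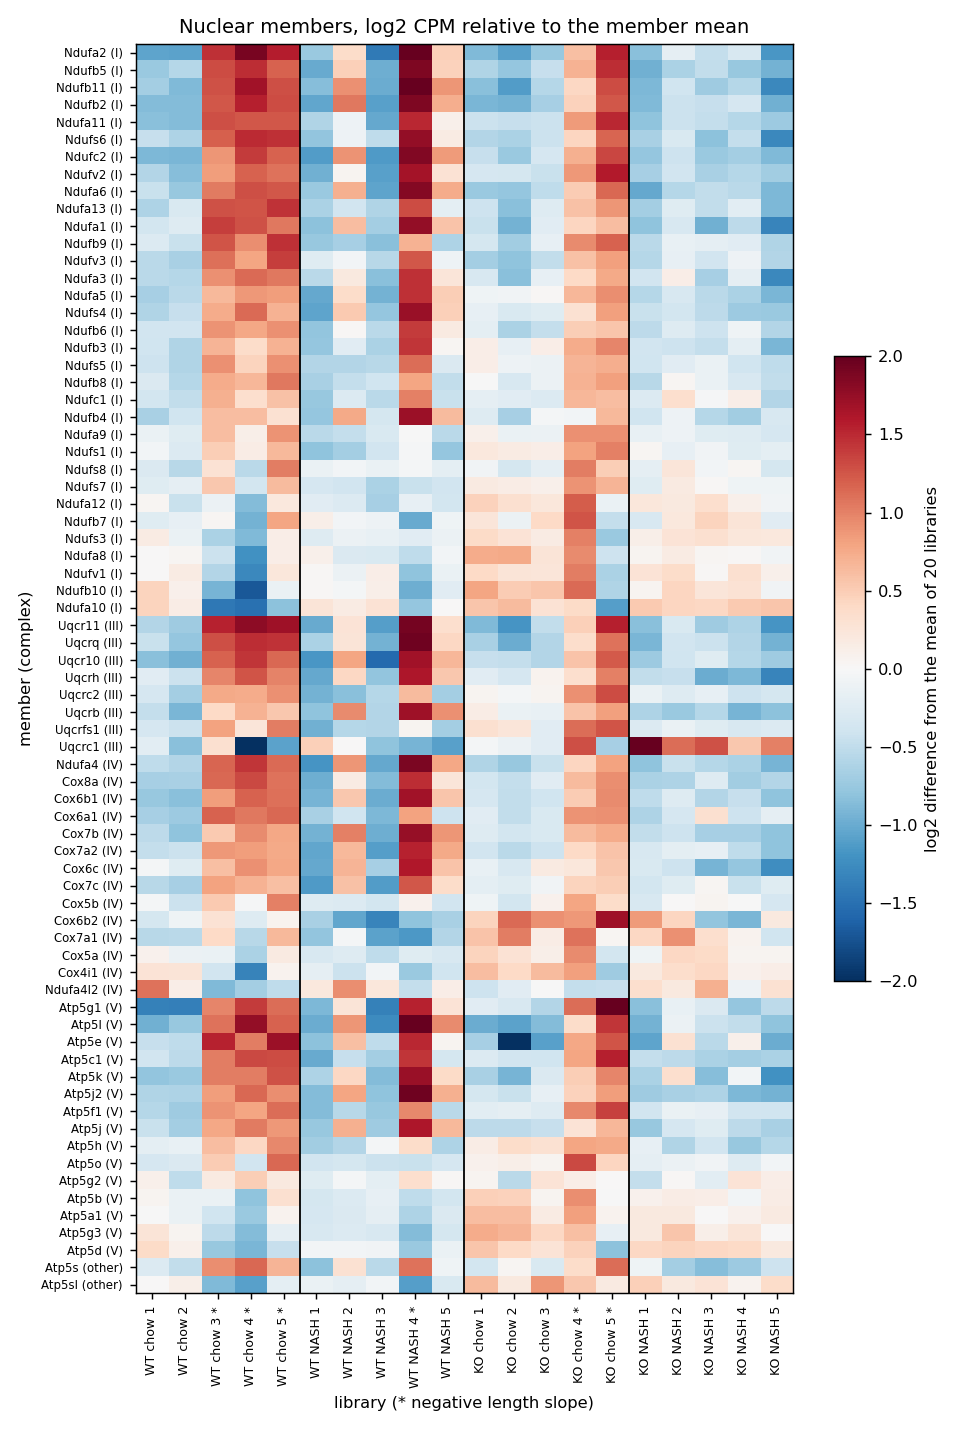
Log2 CPM of 72 tested nuclear members relative to each member's mean over 20 libraries (colour, capped at 2 in either direction), by complex. Columns are libraries and asterisks mark the 6 of negative length slope, in which 53 of all 73 tested members were higher and 11 lower within every group that held both kinds. The 6 were set apart by raised short genes, and the members are short.

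The mitochondrial genes took 5.57% to 15.3% of all counts, and COX1, the catalytic subunit of complex IV, alone took 2.45% to 10.5%. Mitochondrial counts were 5.08 to 11.7 times the summed nuclear counts. On chow this ratio was 9.37 ± 1.79 in WT and 8.18 ± 1.41 in KO mice, and on the NASH diet 9.76 ± 1.49 in WT and 6.94 ± 1.79 in KO mice (SD, n = 5 each), and the groups overlapped. Per kb of gene, mean CPM over 20 libraries was 37569 for COX1, 11950 for CYTB of complex III, and 9387 for ND1, 7286 for ND2, 3512 for ND5 and 2612 for ND4 of complex I. COX2 and COX3, the other mitochondrial subunits of complex IV, were at 266 and 109 CPM per kb, and ATP6 and ATP8 of ATP synthase at 62.8 and 5.36. ND6, the member encoded on the opposite strand, was at 200, and ND3 and ND4L were at 28.3 and 16.2. Subunits of 1 complex thus differed widely in counts, with COX1 far above COX2 and COX3.

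Apart from ND6, the low genes lie side by side. COX2, ATP8, ATP6, COX3, ND3 and ND4L follow one another from base 7013 to base 10173 of the mitochondrial genome. The annotation places a copy of this stretch on chromosome 1. Copies of at least 99.5% identity covered 99.6% of COX2 (Gm28661), 99.6% of ATP6 (Gm10925), 99.9% of COX3 (Gm28437), 99.1% of ND3 (Gm28438) and 99.0% of ND4L (Gm10222), as in the ND3 pair shown above. They covered 63.6% of ND4 (Gm28439), 31.3% of COX1 and 21.1% of ATP8, and 0% of ND1, ND2, ND5, ND6 and CYTB. Gm10222 was matched to a row of the count table, with 60 to 377 counts per library. The effect of these copies on the counts was not tested, and the levels of the genes they cover are uncertain. ND5 and ND6, ATP8 and ATP6, and ND4L and ND4 also overlap one another. ND5 and ND6 lie on opposite strands, and without a stated strand setting their reads cannot be told apart there. The other pairs share a strand, so that no strand setting would separate their reads in the overlap.

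**Figure D3:**
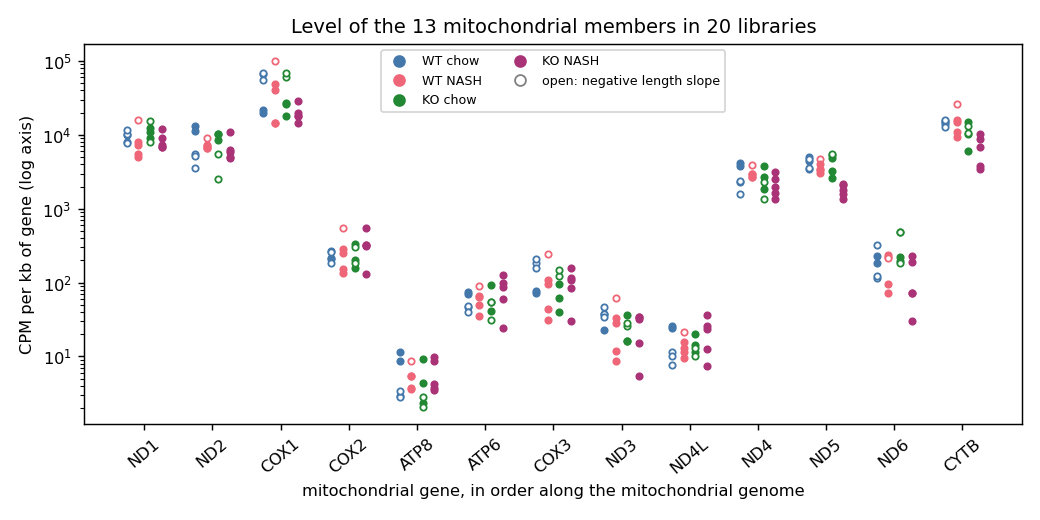
CPM per kb (log axis) of the 13 mitochondrial members in gene order, 1 point per library, coloured by group and open for the 6 libraries of negative length slope. COX2 to ND4L lie far below their neighbours COX1 and ND4, and in ND5 the 5 KO NASH libraries lie below the other 15.

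Tissue isoforms showed the pattern of liver. Over 20 libraries Cox4i1 was at 289 CPM on average, Cox6a1 at 262, Cox7a2 at 109, Cox8a at 241, Cox6b1 at 291 and Cox7b at 267 CPM. Their partners known from lung, striated muscle, heart, brown fat or testis were low: Cox4i2 at 0.117, Cox6a2 at 0.0523 and Cox8b at 0.00542 CPM, with Cox7b2 and Cox8c at 0, Cox7a1 at 1.08 and Cox6b2 at 1.13 CPM. Ndufa4, a subunit of complex IV despite its name, was at 399 CPM and its hypoxia-linked paralog Ndufa4l2 at 0.679 CPM. Some members stood low among partners of their complex. Uqcrc1 averaged 6.61 CPM, against 331 CPM for Uqcrc2, the other core protein of complex III. Ndufa7 of complex I was at 0.131 CPM and was not tested. Ndufb4 of complex I had 34 to 123 counts per library. Atp5g2 of ATP synthase had 20 to 58, against 762 to 8140 for Atp5g3, and an annotated copy, Gm10175, matched 88.2% of the Atp5g2 transcript.

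The NASH diet in wild-type liver was examined by setting WT NASH against WT chow. By edgeR, 0 of 73 nuclear and 0 of 13 mitochondrial members were called, against 5.93% of all genes. At an unadjusted p under 0.05 there were 10 nuclear and 0 mitochondrial members, against 3191 of all 14440 genes. DESeq2 called 3 nuclear members, all lower (Cox6b2, Ndufs1 and Uqcrfs1), against 10.4% of all genes. The median log2 fold change was -0.22 for nuclear and -0.18 for mitochondrial members, against 0.01 for all genes. Without the 6 libraries the nuclear median was 0.18. Again 0 members of either genome were called, against 4.88% of all genes, at 2 WT chow and 4 WT NASH libraries. In that fit 12 nuclear and 3 mitochondrial members had an unadjusted p under 0.05, against 3287 of all 15262 genes. Groups did not overlap in 1 member, Cox6b2, against 6.15% of all genes. Summed nuclear CPM was 13122 ± 4768 in WT chow and 11002 ± 5435 in WT NASH (SD, n = 5 each), so that the spread within each group exceeded the difference. Without WT NASH replicate 4, 9 nuclear members were called lower, against 6.92% of all genes. Without WT chow replicate 1 or 2, 2 were called lower in each case, against 4.08% and 4.23%. The WT chow mice were all male and 4 of the 5 WT NASH mice female, so that diet and sex can hardly be told apart here.

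The loss of Pck1 on chow was examined by setting KO chow against WT chow. Of 73 nuclear members 2 rose, 0 fell, and 0 of 13 mitochondrial members were called, against 5.53% of all genes. At an unadjusted p under 0.05 there were 10 nuclear and 0 mitochondrial members, against 2795 of all 14440 genes. DESeq2 also called 0 mitochondrial members. Atp5a1, the α subunit of the catalytic head of ATP synthase, was at 943, 863, 725, 566 and 997 CPM in WT chow and at 1459, 1454, 1065, 1674 and 997 CPM in KO chow. The groups met at 997 CPM, in replicate 5 of each, and the other 4 KO values were above all WT values. This gave a log2 fold change of 0.70 ± 0.197 (SE), with an edgeR adjusted p of 0.0419. Atp5sl, a gene named for its likeness to an ATP synthase subunit and now known as a complex I assembly factor (DMAC2), was at 29.0, 31.4, 15.4, 13.4 and 25.1 CPM in WT chow and at 45.0, 33.3, 53.9, 42.5 and 33.0 CPM in KO chow, with no overlap. Its log2 fold change was 0.86 ± 0.237 (SE), with an edgeR adjusted p of 0.0388. Groups did not overlap in 2 nuclear members (Atp5sl and Cox6b2), against 4.91% of all genes. Nuclear members had a median of -0.17 and mitochondrial members one of -0.20. DESeq2 called 6 nuclear members, all higher, against 9.62% of all genes, adding Atp5g3, Cox6b2, Ndufa12 and Ndufa8.

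Neither call was stable. Atp5a1 was called in 5 of the 20 fits that left out 1 library, those without WT chow 1 or 5, WT NASH 4 or KO chow 3 or 5, and lost in the 15 others, with log2 fold changes of 0.60 to 0.81. Atp5sl was called in 11 of 20 and lost without WT chow 3, 4 or 5, WT NASH 5, KO chow 1, 2, 3 or 4 or KO NASH 3. Its call was also lost with sex as a term. The WT chow mice were all male and the KO chow mice were not. Without the 6 libraries, which leaves 2 WT chow mice, 0 nuclear and 0 mitochondrial members were called, against 5.33% of all genes. In that fit 18 nuclear and 0 mitochondrial members had an unadjusted p under 0.05, against 3278 of all 15262 genes. The nuclear median was 0.28. With the length slope and sex as terms, 11 nuclear members rose and 0 fell, against 14.3% of all genes called in that fit. They were Atp5a1, Atp5f1, Atp5g1, Atp5g3, Atp5sl, Ndufa12, Ndufa8, Ndufb3, Ndufs1, Uqcrc2 and Uqcrfs1.

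The loss of Pck1 under the NASH diet was examined by setting KO NASH against WT NASH. The mitochondrial genes ND5 and CYTB fell and 11 of 13 were not called, while 2 nuclear members rose and 3 fell of 73, against 9.65% of all genes. DESeq2 called 15 nuclear members, 5 higher and 10 lower, and 2 mitochondrial members, both lower, against 15.2% of all genes. ND5, a proton-pumping subunit of complex I, was at 6248, 6052, 5647, 8569 and 7347 CPM in WT NASH and at 2441, 3285, 3940, 3783 and 2889 CPM in KO NASH. All 5 KO values lay below all 5 WT values, and also below the WT chow values of 8031, 9259, 6273, 8586 and 6540 CPM. The fitted log2 fold change was -1.05 ± 0.242 (SE), with an edgeR adjusted p of 0.0109, a ratio of 0.482. It was called in all 20 fits that left out 1 library (-1.13 to -0.95), and it was called without the 6 libraries at -0.95 (edgeR adjusted p = 0.00568), where WT NASH is 4 females and KO NASH 4 males and 1 female. With sex and the length slope as terms it was -0.90 (edgeR adjusted p = 0.0328). In males only, where WT NASH is 1 mouse, it was -1.36 and not called (edgeR adjusted p = 0.0631).

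CYTB, the mitochondrial subunit of complex III that carries its b hemes, was at 10717, 17284, 12450, 30389 and 18486 CPM in WT NASH and at 3990, 7868, 10076, 11720 and 4354 CPM in KO NASH. The groups overlapped in 1 KO value. In log2 terms the change was -1.23 ± 0.339 (SE), with an edgeR adjusted p of 0.027. The call was lost without WT NASH 4 or 5 or KO NASH 1 or 5, and without the 6 libraries (-0.95, edgeR adjusted p = 0.0611). A fit that included sex gave -1.31, also not called (edgeR adjusted p = 0.053). The other mitochondrial members ran from -1.13 for COX1 (edgeR adjusted p = 0.178) to 0.60 for ND4L (edgeR adjusted p = 0.359), with ND1 at 0.00 and ND2 at -0.15. ND1, ND2, ND5 and CYTB, the genes at 0.00, -0.15, -1.05 and -1.23, all lack annotated near-identical copies. ND6 lacks them too and lay within the range of -1.13 to 0.60. Differences between genes were not tested.

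**Figure D4:**
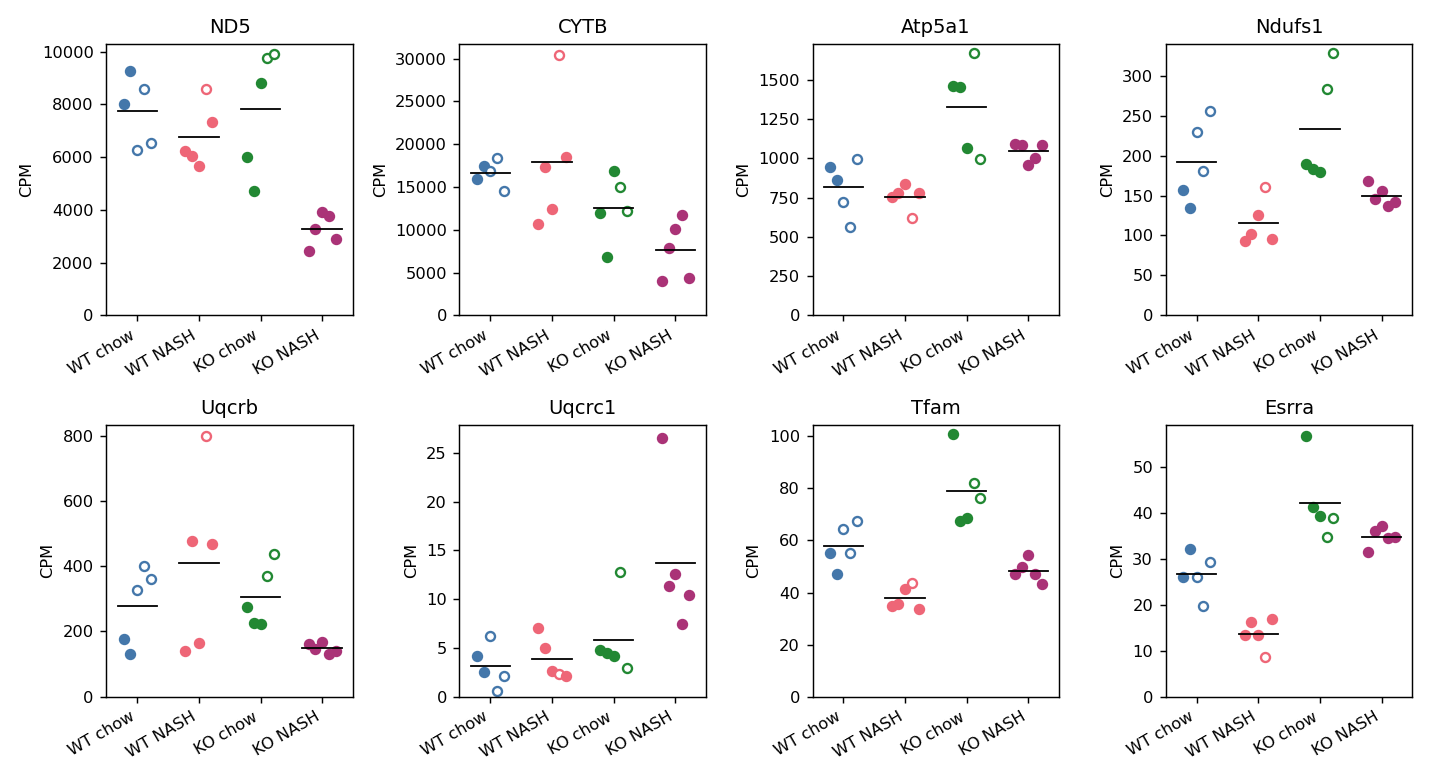
CPM in each mouse (points), with group means (lines) and open points for the 6 libraries of negative length slope, for ND5, CYTB, 4 nuclear members and the regulators Tfam and Esrra. ND5 at 2441 to 3940 CPM in KO NASH lies below all other mice, whereas Uqcrb overlaps between WT NASH and KO NASH.

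Among nuclear members, 3 small subunits fell. Uqcrb, a ubiquinone-binding subunit of complex III, was at 141, 479, 165, 799 and 467 CPM in WT NASH and at 162, 147, 167, 130 and 140 CPM in KO NASH. WT NASH 1 and 3 lay within the KO range and WT NASH 2, 4 and 5 far above. On the log2 scale the difference was -1.46 ± 0.40 (SE), with an edgeR adjusted p of 0.0264. An annotated copy, Gm2962, matched 62.8% of its transcript at 98% identity or more. Atp5j2, a membrane subunit of ATP synthase, was at 83.4, 264, 87.5, 591 and 250 CPM in WT NASH and at 79.0 to 98.9 CPM in KO NASH, a log2 fold change of -1.50 ± 0.464 (SE), with an edgeR adjusted p of 0.0458. Cox6c of complex IV was at 96.8, 315, 125, 600 and 293 CPM in WT NASH and at 82.9 to 160 CPM in KO NASH, a log2 fold change of -1.23 ± 0.383 (SE), with an edgeR adjusted p of 0.0467. In all 3 genes WT NASH 2, 4 and 5 were the high samples. WT NASH 4 has a slope of -0.30, and WT NASH 2 and 5, at 0.02, have the lowest slopes of the other 14 libraries.

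Uqcrc1 rose. It was at 7.04, 4.98, 2.60, 2.35 and 2.07 CPM in WT NASH and at 26.6, 11.3, 12.6, 7.43 and 10.4 CPM in KO NASH, with no overlap. This gave a log2 fold change of 1.83 ± 0.511 (SE), with an edgeR adjusted p of 0.0293, at a level far below that of the other core subunit. With sex as a term it was 1.55 and not called (edgeR adjusted p = 0.14). Cox6b2, known as the testis isoform of a complex IV subunit, also rose, at 0.0605 to 0.387 CPM in WT NASH and 0.240 to 2.00 CPM in KO NASH (1.98 ± 0.563 SE on the log2 scale, edgeR adjusted p = 0.0311). Its group ranges overlapped, and its lowest value rests on 1 count.

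Each nuclear call depended on single libraries, and none of the 5 was made with KO NASH 1 and 5 summed. Without WT NASH 4 edgeR called 0 nuclear members, against 6.6% of all genes called. Without KO NASH 1 it also called 0, against 5.38%. Uqcrb and Atp5j2 were called without the 6 libraries at -1.07 and -0.93 (edgeR adjusted p = 0.0254 and 0.0384), and Cox6c was not, at -0.77 (edgeR adjusted p = 0.0911). Uqcrb lost its call without WT NASH 2, 4 or 5 or KO NASH 1, 3, 4 or 5. Uqcrc1 lost it without WT NASH 3, 4 or 5 or KO NASH 1 or 3, and Cox6b2 without WT NASH 2, 3 or 4 or KO NASH 1, 2 or 5. Atp5j2 was called in 8 of 20 such fits and lost without WT chow 3 or 5, WT NASH 2, 4 or 5, KO chow 3 or 4 or any KO NASH library. Cox6c was called in 6 of 20 and lost without WT chow 1, 3 or 5, WT NASH 2, 4 or 5, KO chow 1, 3 or 4 or any KO NASH library.

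The nuclear calls differed widely between sets of libraries. In males only, where WT NASH is replicate 4 alone and is assumed to vary like the other groups, 31 nuclear members were called, all lower, against 9.69% of all genes called lower. With the 6 libraries of negative slope set aside, 17 of 73 nuclear members rose and 2 fell, against 20.3% of all genes called and 10.5% called higher. The 17 comprised 5 members of complex I, 3 of complex III, 4 of complex IV, 4 of complex V and Atp5sl, and the median length of the 16 with a known transcript was 1236.5 bases. In complex I they included Ndufs1, Ndufs3 and Ndufs7, core subunits of the electron-transfer arm. Ndufs1, an iron-sulfur subunit, was at 93.4, 102, 125 and 95.2 CPM in WT NASH 1, 2, 3 and 5 and at 168, 146, 155, 137 and 142 CPM in KO NASH, with no overlap. WT NASH 4, at 161 CPM, lay within the KO range. The log2 fold change of Ndufs1 was 0.52 ± 0.116 (SE), with an edgeR adjusted p of 0.00759, without the 6 libraries and 0.38 (edgeR adjusted p = 0.31) with all 20.

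In the catalytic head of ATP synthase, Atp5a1 was at 757, 778, 838, 618 and 777 CPM in WT NASH and at 1093, 1087, 960, 1005 and 1084 CPM in KO NASH. The groups did not overlap. Its log2 fold change was 0.41 ± 0.127 (SE), with an edgeR adjusted p of 0.0356 without the 6 libraries and 0.47 (edgeR adjusted p = 0.132) with all 20. Atp5g3, whose promoter is shown above, was at 164, 169, 164, 112 and 161 CPM in WT NASH and at 235, 301, 222, 244 and 207 CPM in KO NASH, again with no overlap. Its log2 fold change was 0.56 ± 0.132 (SE), with an edgeR adjusted p of 0.0106, without the 6 libraries and 0.65 (edgeR adjusted p = 0.067) with all 20. Cox4i1 and Cox5a of complex IV were at 0.49 and 0.52 and Uqcrc2 and Uqcrfs1 of complex III at 0.49 and 0.44 without the 6 libraries, all called by edgeR (adjusted p = 0.0143, 0.0153, 0.0129 and 0.0306).

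Of the 17, 16 were also positive with all 20 libraries, but 2 were called there (Cox6b2 and Uqcrc1). With the length slope as a term 9 of the 17 were called higher, with sex as a term 1, and with both terms 3 (Cox6b2, Ndufs1 and Ndufs7). In these fits 8.39%, 2.02% and 5.2% of all genes were called higher. The 17 were picked by their calls in this comparison, in part of the same libraries. Their counts therefore cannot be tested against those shares. Without the 6 libraries the 4 WT NASH mice were female and 4 of the 5 KO NASH mice male, so that genotype and sex can hardly be told apart there. Over all 20 libraries, groups did not overlap in 14 nuclear members, each higher in KO NASH, and in ND5, against 14.1% of all genes. The nuclear median was -0.56 with all 20 libraries and -0.09 without the 6, and the mitochondrial median -0.15 and 0.25.

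**Figure D5:**
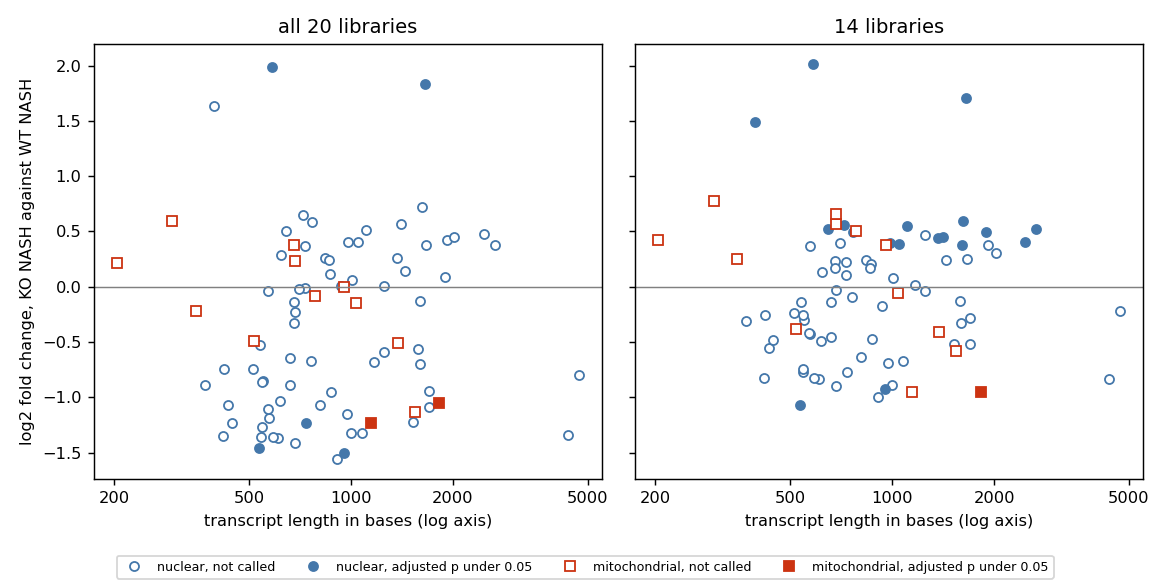
Log2 fold change of KO NASH against WT NASH for each member by transcript length (log axis), from all 20 libraries (left) and the 14 without negative slope (right). Circles are nuclear and squares mitochondrial members, filled where the edgeR adjusted p was under 0.05. Atp5sl, which has no matched transcript length, is not drawn. On the left 2 nuclear members are called higher, and on the right 16 of the 17, while ND5 is called lower in both.

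The diet in livers without Pck1 was examined by setting KO NASH against KO chow. ND5 fell again, as did 1 of 73 nuclear members, Atp5h, and 0 members rose, against 3.29% of all genes. DESeq2 called 3 nuclear and 2 mitochondrial members, all lower, against 9.02% of all genes. ND5 was at 5998, 4733, 8830, 9748 and 9921 CPM in KO chow, all above the KO NASH values given above. The fitted log2 fold change was -1.26 ± 0.243 (SE), with an edgeR adjusted p of 0.0104. It was called in all 20 fits that left out 1 library and, at -0.99 (edgeR adjusted p = 0.0151), without the 6. In males only it was -1.07 and not called (edgeR adjusted p = 0.156). Both comparisons use the same KO NASH mice. ND6, which is encoded on the other strand and overlaps ND5 at its end, was at -1.41 (edgeR adjusted p = 0.107), and CYTB at -0.73 (edgeR adjusted p = 0.21).

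Atp5h was at 143, 167, 160, 224 and 217 CPM in KO chow and at 115, 84.4, 98.6, 76.2 and 86.6 CPM in KO NASH, with no overlap. In log2 terms the change was -0.98 ± 0.252 (SE), with an edgeR adjusted p of 0.0391, and -0.77 without the 6 libraries (edgeR adjusted p = 0.013). Its call was lost without KO chow 1, 4 or 5 or any KO NASH library. An annotated copy, Gm10250, matched 71.1% of its transcript. Groups did not overlap in 13 nuclear members, each lower in KO NASH, and in ND5, against 8.5% of all genes. Without the 6 libraries Atp5h and Ndufa8 were lower and Uqcrc1 higher, against 7.69% of all genes called. The nuclear median of -0.64 became -0.11, and the mitochondrial median of -0.16 became -0.25.

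The interaction asks whether the KO minus WT difference changed with diet. By edgeR 0 of 73 nuclear and 0 of 13 mitochondrial members were called, against 0.139% of all genes. At an unadjusted p under 0.05 there was 1 of each genome, against 1191 of all 14440 genes. ND5 was at -1.07 ± 0.34 (SE), with an edgeR adjusted p of 0.259. DESeq2 called ND5 at -1.08 (DESeq2 adjusted p = 0.0371) and 0 nuclear members, against 1.31% of all genes. Setting the 6 libraries aside again gave 0 calls by edgeR, against 0.518% of all genes. In that fit 7 nuclear and 1 mitochondrial members had an unadjusted p under 0.05, against 2026 of all 15262 genes. ND5 was then at -0.56 (edgeR adjusted p = 0.51). By edgeR, ND5 is therefore not shown to respond differently to the loss of Pck1 on the 2 diets.

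Genes that act on the members were read from lists chosen with earlier results known. Of 10 nuclear regulators of respiration, 2 rose and 0 fell in KO chow against WT chow (5.53% of all genes called), 1 rose and 0 fell in KO NASH against WT NASH (9.65%), and 1 fell in WT NASH against WT chow (5.93%). These counts were 1, 2 and 1 without the 6 libraries, against 5.33%, 20.3% and 4.88%. Esrra, which encodes the estrogen-related receptor α, was at 26.6 ± 4.63 CPM on chow and 13.7 ± 3.21 CPM on the NASH diet in WT mice, and at 42.1 ± 8.45 and 34.7 ± 2.09 CPM in KO mice (SD, n = 5 each). In both diets all KO mice were above all WT mice. Its log2 fold changes were 0.66 in KO chow against WT chow (edgeR adjusted p = 0.0371), 1.34 in KO NASH against WT NASH (edgeR adjusted p = 0.000245) and -0.95 in WT NASH against WT chow (edgeR adjusted p = 0.00437). Without the 6 libraries the values were 0.67, 1.22 and -0.94, each called by edgeR. In that fit WT chow is 2 males, WT NASH 4 females and KO NASH 4 males and 1 female. Diet in WT mice cannot be told apart from sex there, and genotype on the NASH diet hardly can. Nrf1 and Gabpa were not called in these comparisons, and Myc was the other regulator called higher in KO chow (2.08, edgeR adjusted p = 0.037). That call was lost without the 6 libraries (1.70, edgeR adjusted p = 0.0733), where Myc was instead called higher in KO NASH than in WT NASH (1.53, edgeR adjusted p = 0.0165) and Gabpa lower in KO NASH than in KO chow (-0.56, edgeR adjusted p = 0.0182).

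Of 14 tested genes of mitochondrial transcription and replication, 3 fell and 0 rose in KO NASH against KO chow, against 3.29% of all genes called. When the 6 libraries were left out, 5 fell and 1 rose, against 7.69%. Tfam, which packages and helps to transcribe mitochondrial DNA, was at 67.7 to 101 CPM in KO chow and 43.3 to 54.6 CPM in KO NASH, with no overlap (-0.71, edgeR adjusted p = 0.019). Tfb2m, the partner of the polymerase at the promoter, was at 22.4 to 46.8 and 14.4 to 18.5 CPM (-1.04, edgeR adjusted p = 0.0198). Tfb1m, a methyltransferase of mitochondrial ribosomal RNA, was lower as well (-1.16, edgeR adjusted p = 0.0376). All 3 were called without the 6 libraries too, at -0.71, -0.74 and -0.80. In that fit Tfb2m and Mterf4 were also called higher in KO chow than in WT chow (0.55 and 0.91, edgeR adjusted p = 0.0478 and 0.017), against 5.33% of all genes. Tfam also fell in WT NASH against WT chow (-0.62, edgeR adjusted p = 0.0206), a call lost without the 6 libraries (-0.48, edgeR adjusted p = 0.113). Polg was instead called lower there without the 6 (-0.48, edgeR adjusted p = 0.0238), against 4.88% of all genes. In KO NASH against WT NASH, where ND5 fell, Tfam was at 0.36 (edgeR adjusted p = 0.14) and Tfb2m at -0.17 (edgeR adjusted p = 0.684). Tfam was called higher there without the 6 libraries, at 0.41 (edgeR adjusted p = 0.0422), as 1 of 3 genes of this list called higher and 1 called lower, against 20.3% of all genes.

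Of 27 tested assembly factors for complexes III to V, 2 rose in KO chow against WT chow (5.53% of all genes called), and 2 rose and 1 fell in KO NASH against WT NASH (9.65%). With the 6 libraries left out, 5 rose in the first comparison (5.33%), 5 rose and 1 fell in the second (20.3%), and 3 fell in KO NASH against KO chow (7.69%), where 0 were called with all 20. Cox10, which makes heme O for complex IV, was at 4.46 to 8.73 CPM in WT chow and 14.2 to 32.5 CPM in KO chow, with no overlap (1.66, edgeR adjusted p = 0.000571), and it rose by 0.96 on the log2 scale in KO NASH against WT NASH (edgeR adjusted p = 0.0155). Ttc19 of complex III rose (0.74) and Cox20, a chaperone of COX2, fell (-1.57) in KO NASH against WT NASH (edgeR adjusted p = 0.0155 and 0.0124). Of 13 tested complex I factors 1 fell with all 20 libraries, Ndufaf4 in KO NASH against KO chow (-1.31, edgeR adjusted p = 0.0441). There 3.29% of all genes were called. With the 6 left out, 2 of the 13 fell in that comparison (7.69%), and 1 rose and 1 fell in WT NASH against WT chow (4.88%). Among 8 tested cytochrome c and carrier genes, Cyc1 and Vdac2 were called higher in KO chow than in WT chow (0.59 and 0.84, edgeR adjusted p = 0.0388 and 0.0381). There 5.53% of all genes were called. Vdac2 was not called without the 6 libraries (0.59, edgeR adjusted p = 0.0709). Cyc1 and Cycs were called higher in that fit (0.62 and 1.59, edgeR adjusted p = 0.0409 and 0.0441), against 5.33% of all genes. In KO NASH against WT NASH 0 of the 8 were called with all 20 libraries. Without the 6, 2 were higher, against 20.3%. In KO NASH against KO chow 0 of the 8 were called with all 20 libraries, and 5 were lower without the 6 (Slc25a3, Slc25a5, Vdac1, Vdac2 and Vdac3, at -0.72 to -0.44), against 7.69% of all genes. The 4 complex II genes did not pass the edgeR threshold in any comparison with all 20 libraries. Without the 6, Sdha and Sdhb were called higher in KO NASH than in WT NASH (0.47 and 0.49, edgeR adjusted p = 0.0178 and 0.00981). Sdhd was then called lower in KO NASH than in KO chow (-0.59, edgeR adjusted p = 0.0238). Of all genes 20.3% and 7.69% were called in these comparisons.

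Markers of other liver cells were read from the same fit. Bulk RNA cannot tell fewer cells of a type from less RNA per cell. Of 7 macrophage and leukocyte markers, Cd3e and Cd68 were called higher in WT NASH than in WT chow, against 5.93% of all genes. Cd68 was also called higher in KO chow than in WT chow, against 5.53%. Of the 7, 0 were called in any comparison without the 6 libraries. Cd68, a macrophage marker, was at 1.01 in WT NASH and 1.03 in KO chow (edgeR adjusted p = 0.038 and 0.036), and at 0.53 and 0.56 without the 6 (edgeR adjusted p = 0.31 and 0.311). Col1a1, a collagen of stellate cells, rose in KO NASH against KO chow (2.26, edgeR adjusted p = 0.0287), also without the 6 libraries (1.80, edgeR adjusted p = 0.0252). It was the 1 of 8 endothelial, stellate and bile duct markers called in each fit, against 3.29% and 7.69% of all genes.

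In KO NASH against WT NASH, where ND5 fell, the endothelial receptor gene Kdr rose (0.66, edgeR adjusted p = 0.0323), also without the 6 libraries (0.65, edgeR adjusted p = 0.0153). Col1a1 was at 1.41 there (edgeR adjusted p = 0.0904) and was called higher without the 6 (1.52, edgeR adjusted p = 0.0156). Among 7 tested hepatocyte markers, Serpina1a fell in that comparison (-0.82, edgeR adjusted p = 0.0439), also without the 6 (-0.71, edgeR adjusted p = 0.0197). In KO chow against WT chow its call (-1.07, edgeR adjusted p = 0.0189) was lost without them (-0.77, edgeR adjusted p = 0.0974). With all 20 libraries it was the 1 of 7 hepatocyte markers called there, against 5.53% of all genes. In the fit without the 6 libraries, in which 17 nuclear members rose, Asgr1 was also called higher (1.62, edgeR adjusted p = 0.0123) and Hnf4a lower (-0.42, edgeR adjusted p = 0.0412) in KO NASH than in WT NASH. With all 20 libraries 1 of 8 endothelial, stellate and bile duct markers rose and 1 of 7 hepatocyte markers fell there, against 9.65% of all genes. Without the 6, 2 of the 8 rose, and of the 7, 1 rose and 2 fell, against 20.3%. The part of these cells in the members' values was not tested.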

How the data were processed

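Liver RNA of 20 mice was analysed from deposited raw counts per gene symbol, 1 column per library. Per the submitters' processing notes, reads were aligned with HISAT2 2.0.4 and the build was GRCm38. Which program counted the reads, on which annotation and with which strand setting, is not given in the sources used here. Column names call the NASH diet "HFD", and those columns were matched to the NASH groups. Library totals ran from 9958935 to 20601955 counts, and intervals of counting error were not needed beside the spread between mice. Nothing in the labels ties replicate numbers to a litter, batch or day.

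Genes were filtered with filterByExpr (minimum count 10), scaled with TMM and fitted with 1 mean per group in edgeR 4.0.16 (R 4.3.3). The quasi-likelihood test was used, and calls were made at an adjusted p (Benjamini-Hochberg over the 14440 genes tested) under 0.05. CPM are counts scaled to the TMM library size, as mean ± SD over 5 mice. Lengths, positions and copies came from GENCODE M21 (blastn 2.17.0), and promoters from the RefSeq table of GRCm38.p6. Sex was read from 4 Y-linked genes (at least 100 counts for male). The length slope of a library is the slope of its relative log2 CPM on log2 transcript length over 9754 genes. The model was tested on simulated counts.

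The members and all gene lists were chosen with earlier results of these data known. Genes are named by this rule: every mitochondrial member; the called nuclear members with a mean of at least 5 CPM, up to 5 in each direction per comparison; the tissue isoforms; the catalytic subunits; at most 2 called genes of each other list; and Pck1. Other names were chosen after their values were seen. The values of 1 nuclear member are not reported here. The 3 promoter motifs were also chosen after the values were seen, the estrogen-related receptor motif because of the values of Esrra. Alternatives were other size factors (RLE), library sizes from nuclear genes, DESeq2 1.42.0, no filter, the length slope and sex as terms, males only, the replicate number as a block, KO NASH replicates 1 and 5 summed, the fit without the 6 libraries of negative slope, and each library left out in turn.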

Additional observations from a re-analysis of the deposited data

Results flagged for a closer look

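Single libraries stood far from the other 4 of their group in 13 of 172 groups examined (in each group of 5, the mitochondrial, catalytic and called members and the tissue isoforms, where the mean reached 1 CPM, and the summed shares and ratio of the 2 genomes). A library was picked where its gap to the nearest value exceeded 0.71 of the group's range, which chance gives in about 1 in 20 groups. In WT NASH the highest library was apart for ND1 (15440 CPM), ND2 (9578 CPM), ND4 (5335 CPM), Uqcrc2 (462.4 CPM), Cox5b (139 CPM), Ndufv2 (438.4 CPM) and Cox6a1 (406.2 CPM), and the lowest for Cox5a (69.8 CPM). The highest was replicate 4 each time, the only male of its group and its only library of negative length slope. In KO chow the highest was apart for Uqcrc1 (12.78 CPM). In KO NASH the highest was apart for ND2 (11480 CPM), Uqcrc1 (26.56 CPM) and Cox8a (171.5 CPM), and the lowest for Atp5b (985.1 CPM). The members are not independent of one another within a library.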

How the results depend on the processing

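Counts of called nuclear members moved with the setting, and the causes were not tested. Percentages are the share of all genes called in the same setting. For WT NASH against WT chow (0 called, 5.93%) they were 3 by DESeq2 (10.4%), 4 with the length slope (12.3%) and 1 with sex and slope (4.97%). For KO chow against WT chow (2, 5.53%) they were 6 by DESeq2 (9.62%), 1 without the low-count filter (2.59%), 8 with the slope (11.9%), 11 with sex and slope (14.3%), 0 without the 6 libraries (5.33%), 1 with the replicate block (6.11%) and 1 with KO NASH 1 and 5 summed (4.85%). For KO NASH against WT NASH (5, 9.65%) they were 15 by DESeq2 (15.2%), 3 without the filter (4.54%), 13 with the slope (16.9%), 2 with sex (4.33%), 19 without the 6 libraries (20.3%), 31 in males only (13%; all lower, with 1 WT NASH mouse assumed to vary like the other groups), 3 with the replicate block (10.1%) and 0 with KO NASH 1 and 5 summed (5.23%). Mitochondrial members (2) were 1 without the filter, with sex, with sex and slope, without the 6 libraries, in males only and with the 2 libraries summed. For KO NASH against KO chow (1, 3.29%) nuclear members were 3 by DESeq2 (9.02%), 0 without the filter (0.96%), 2 with sex and slope (9.07%), 3 without the 6 libraries (7.69%), 0 in males only (0.37%) and 0 with the 2 libraries summed (1.23%). Mitochondrial members (1) were 2 by DESeq2 and 0 in males only. The interaction (0, 0.139%) gave 1 member by DESeq2 (1.31%) and 1 with the slope (1.26%).

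Leaving out each library in turn gave 0 to 9, 0 to 7, 0 to 11 and 0 to 2 nuclear members in the 4 comparisons in that order, 0 to 0, 0 to 0, 1 to 2 and 1 to 1 mitochondrial members, and 0 to 0 in the interaction. For KO chow against WT chow the 7 came without KO chow 5. For KO NASH against WT NASH the 11 and 8 came without WT NASH 1 and 3, and the 0 without WT NASH 4 or KO NASH 1. The share of all genes called was 6.6% without WT NASH 4 and 5.38% without KO NASH 1. For the 7, 11 and 8 it is not given here, so whether the members or all genes moved cannot be read from these counts. No called member changed sign in any alternative. Replicate numbers do not pair the mice: same-numbered libraries correlated at a median of 0.049 in their deviations from the group means (-0.50 to 0.65), and others at -0.036. The replicate block left ND5 called in both comparisons. KO NASH 1 and 5 were the most alike libraries but differed beyond counting noise, so both were kept. With a biological coefficient of variation of 39%, small changes of single members are not detectable here.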
